A study of Mus musculus with 2 samples.

Results

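The cells described here are the 838 wounded anorectal epithelial cells that carry the cluster name Wound_Stress in the table deposited by the authors. Members were taken by barcode: every barcode of the wounded library with that name was used, and its counts of unique molecular identifiers (UMIs, 1 per captured RNA molecule) were read from the count matrix. They made up 20.2% of the 4147 named cells of the wounded library, and 838 of the 5086 named cells in both libraries. The other wounded names were Regeneration with 991 cells, Suprabasal with 1032, Basal with 573, Hybrid with 316 and Rectum with 397.

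The study asked whether cells of the anorectal transition zone, where the stratified epithelium of the anal canal meets the glandular epithelium of the rectum, take part in repair. Cells were sorted with a strategy based on Epcam, an adhesion protein of epithelial cells, and the sorting gate excluded cells with CD45, CD11b, CD31 or PDGFRa, markers of leukocytes, endothelium and fibroblasts. The general sorting protocol pooled tissue of at least 5 mice, with no separate number for the wounded library. It dissociated the tissue with collagenase under agitation before sorting. Both conditions used K17CreERT2;R26RGFP mice of strain C57/BL6J, in which a tamoxifen-inducible Cre under the keratin 17 promoter switches on a fluorescent reporter, and all received tamoxifen 2 times. In the wounded condition the rectal epithelium beside the transition zone of mice 2 to 4 months old was removed with hot EDTA, a chelator that loosens epithelium, and mechanical abrasion, and cells were prepared 1 week later. Cells of the normal condition came from unwounded mice. For the genetic mice in general, in normal and injured conditions, an age of 6-8 weeks is also stated, which differs from the age given for wounding. Each condition is 1 library, so no value below has a replicate check and no test between groups was possible. Which cells carried the reporter was not analysed here.

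Stratified epithelium is renewed from a basal layer, held to its basement membrane by integrins and marked by keratins 5 and 14 and the transcription factor p63. Around the anal canal it is joined by hair follicles, sebaceous glands and modified anal glands, whose cells build lipid. Injured squamous epithelium is known to raise the stress keratins 6, 16 and 17, chemokines and the immediate-early genes, whose transcription starts within minutes of a signal without new protein. Il33 encodes an alarmin of the interleukin 1 family that is held in the nucleus and released on cell damage.

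Wound_Stress cells held a median of 8532 UMIs (quartiles 5390 and 11382) and 2304 detected genes, and 10.95% of a cell's UMIs came from mitochondrial genes at the median. Regeneration cells were deeper and lower in mitochondrial UMIs, with medians of 12616 UMIs, 2889 genes and 5.91%. The medians of UMIs in Suprabasal, Rectum, Basal and Hybrid cells were 10594, 9991, 9075 and 2390. All 838 barcodes were absent from the normal library, which shared 1 barcode with the wounded library. Levels are given as CPM, the UMIs of a gene summed over a group's cells per 1000000 UMIs of that group. Ranges in brackets are exact 95% intervals, which cover counting error of these libraries only. Because the clusters were formed from the same genes, every ratio between names is a description.

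The genes that mark this name were all at their highest among the 6 wounded names in Wound_Stress, although Mc5r (56.6 CPM) and Mgst1 (1962 CPM) were higher still in the 1078 filtered cells of the same library that have no name. Mc5r, the melanocortin receptor of sebaceous and other exocrine glands (ENSMUSG00000007480, chromosome 18, 68337596 to 68342446), was at 37.1 CPM (32.9 to 41.8), against 14.1 in Regeneration, 6.74 in Hybrid, 1.38 in Suprabasal, 0.871 in Basal and 0.73 in Rectum. Lgr6, an R-spondin receptor known from stem cells of the upper follicle and interfollicular epidermis (ENSMUSG00000042793, chromosome 1, 134983301 to 135105276), was at 22.8 CPM (19.5 to 26.5) and at 11.2 in Regeneration. For the other 4 names the Lgr6 level lay between 1.46 CPM in Rectum and 6.27 CPM in Basal. These receptors were therefore higher in Wound_Stress than in Regeneration, by 2.64-fold for Mc5r and 2.04-fold for Lgr6. Over the alternatives the log2 ratio of Lgr6 ran from 0.71, within 2-fold, to 1.19, and that of Mc5r from 1.14 to 1.85.

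Il33 (ENSMUSG00000024810, chromosome 19, 29925114 to 29960718) and Mgst1, a microsomal glutathione transferase (ENSMUSG00000008540, chromosome 6, 138140316 to 138156755), did not set Wound_Stress apart from Regeneration in the same way. The level of Il33 was 154 CPM (145 to 163) in Wound_Stress and 134 CPM (128 to 140.4) in Regeneration, a log2 ratio of 0.20 (0.09 to 0.31). In the other 4 names Il33 ran from 6.45 CPM in Basal to 20.9 CPM in Hybrid. Mgst1 was at 857 CPM in Wound_Stress, 781 in Regeneration and between 151 and 199.6 in the rest. Its log2 ratio over Regeneration was 0.13 (0.09 to 0.18), close to the median of 0.13 over all 10601 genes with at least 50 UMIs in both groups together. In the deposited log table the log2 ratio of Il33 over Regeneration was -0.07. Coordinates were taken from the GENCODE M21 annotation (GRCm38, also called mm10).

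**Figure D1:**
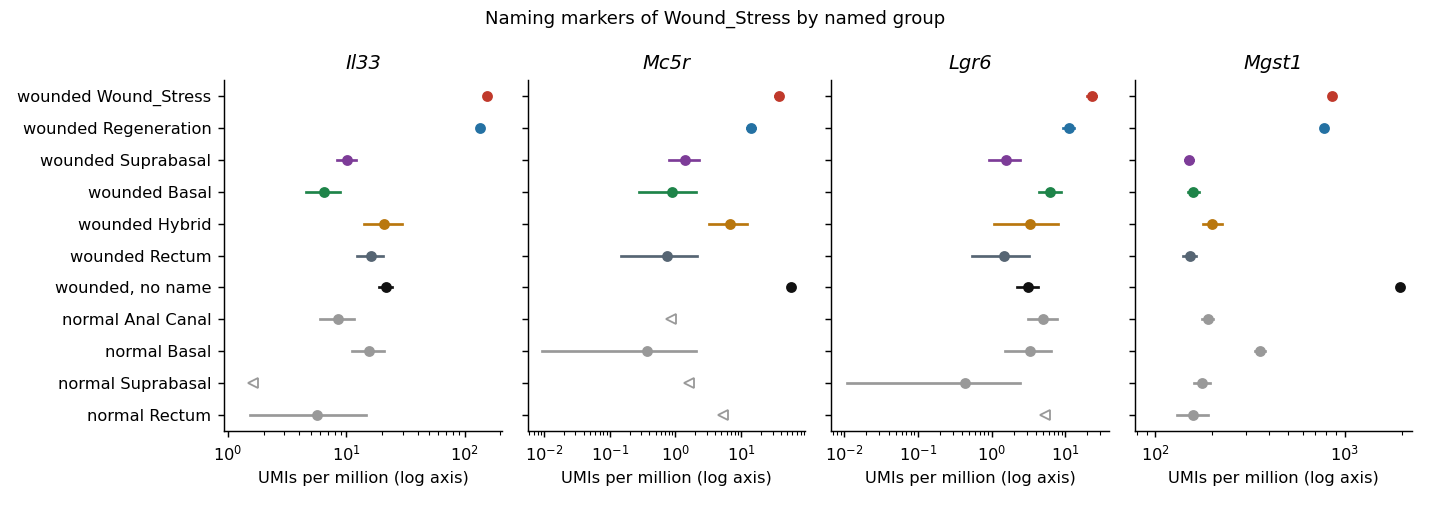
Levels of the 4 naming markers (CPM, log axes that differ between panels) in the 6 wounded names, the filtered wounded cells without a name and the 4 normal names, with points for summed levels and lines for exact 95% Poisson intervals. Open triangles mark the upper limit where a group held 0 UMIs, and Wound_Stress is the highest of the 6 wounded names in each panel, with Regeneration next to it.

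Single cells gave the same order at a fixed depth. When each cell was thinned to 2000 UMIs, which left out 20 of the 838 cells, 75.7% of Wound_Stress cells (72.6 to 78.6) held a UMI of Mgst1 and 23.2% (20.4 to 26.3) a UMI of Il33. The shares for Mc5r and Lgr6 were 7.46% (5.75 to 9.48) and 4.28% (3.0 to 5.9). In Regeneration, where 5 cells were left out, the same shares were 60.5%, 19.2%, 2.23% and 2.03%. Rectum cells, a simple epithelium, stood in for the background of free RNA in the droplets, which was not itself measured or separated from expression in these cells. Their shares were 25.7% for Mgst1, 3.95% for Il33, 0.282% for Lgr6 and 0 of 354 cells for Mc5r, which allows up to 1.04%. For Mgst1 the shares in Suprabasal and Basal were 26.6% and 23.8%. Without thinning, 52.4% of Wound_Stress cells and 53.9% of Regeneration cells held a UMI of Il33. At least 2 of the 4 markers were found in 25.2% of thinned Wound_Stress cells, 14.4% of Regeneration cells and 1.13% of Rectum cells, and none in 16.9%, 31.1% and 71.2%.

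Against the 3309 other named wounded cells together, 12654 genes had at least 50 UMIs. Of these, 412 (3.26%) were over 2-fold higher in Wound_Stress and 2126 (16.8%) over 2-fold lower, and the median log2 ratio of all genes was 0.02. With totals that leave out mitochondrial and ribosomal protein genes the counts were 700 and 1948 and the median was 0.18. The highest ratio was that of Otoa, known for otoancorin of the inner ear, at 17.7 CPM in Wound_Stress and 2.39 CPM in the other cells, a log2 ratio of 2.89 (2.48 to 3.29). Receptors for small peptides were also among the 10 highest ratios, with Mc5r at rank 2, Oxtr at rank 3 and Avpr1a at rank 10. Oxtr, the oxytocin receptor, was at 36.7 CPM against 6.54 CPM (5.61-fold), and Avpr1a, a vasopressin receptor, at 85.4 against 23.4 CPM (3.64-fold). Much of this was shared with Regeneration, where Avpr1a was at 57.7 CPM and Oxtr at 16.1 CPM. The melanocortin and neuropeptide list held 5 receptors with enough UMIs. The naming marker Mc5r, Oxtr and Avpr1a were over 2-fold higher, beside 3.26% of all genes. This list was written with earlier results of these data known, so its counts are a description and no test. The prostaglandin receptor Ptger4 and the nucleotide receptor P2ry2, also on this list, were over 2-fold lower, beside 16.8%. Over Regeneration 2 of 4 were higher and 1 lower, beside 2.78% and 5.33% of all genes. The receptors Mc1r, Mc3r and Mc4r and the accessory proteins Mrap and Mrap2 had no UMI in Wound_Stress.

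The rest of the 10 highest ratios belonged to genes of mixed function. Ermp1, a metallopeptidase of the endoplasmic reticulum, was at 560.2 CPM in Wound_Stress and 302 in Regeneration, and between 39.0 and 85.8 in the other 4 names. Bche, butyrylcholinesterase, was at 25.1 CPM against 13.1 in Regeneration and at most 3.89 in the others. Tmem56 was at 129.7 CPM and Ankrd31 at 14.5 CPM, against 66.0 and 8.61 CPM in Regeneration. Retn, the hormone resistin, was at 20.6 CPM, but 72.7% of its 154 UMIs came from 5 cells. Its log2 ratio over the other named cells was 2.16 and ran from 0.37, within 2-fold, to 3.49 over the alternatives. In the filtered wounded cells without a name, Ermp1 was at 487 CPM, Tmem56 at 116 CPM and Retn at 69.0 CPM.

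**Figure D2:**
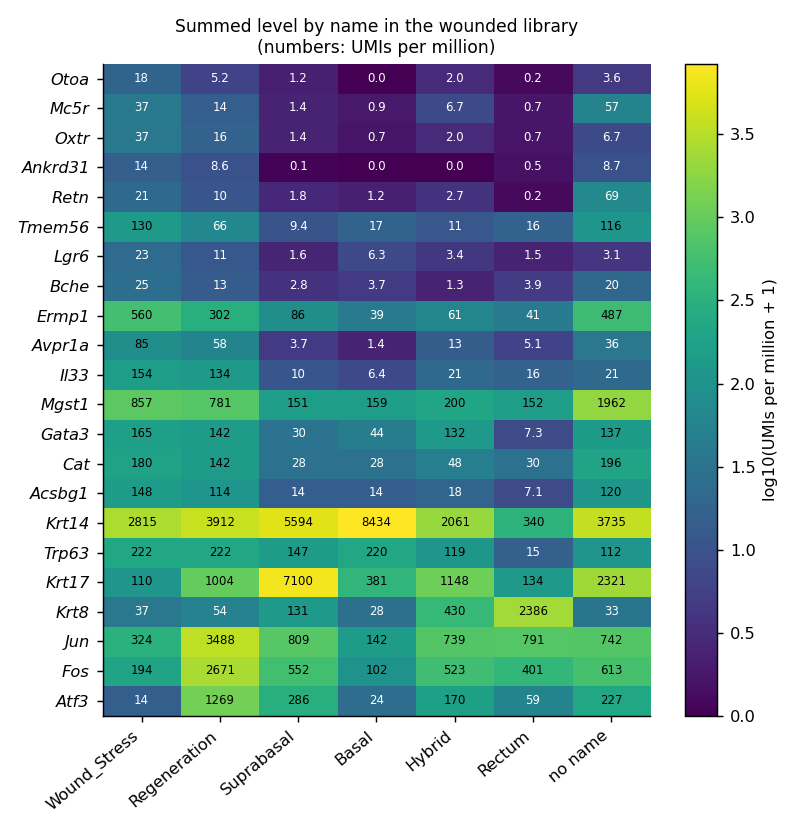
Summed levels (numbers in CPM, colours as log10 of CPM + 1) of the 10 genes with the highest ratio over the other named cells, followed by other naming markers, gland, basal, transition zone, rectum and immediate-early genes, in the 6 wounded names and the filtered wounded cells without a name. The 10 upper genes are highest of the 6 names in Wound_Stress and next highest in Regeneration, and Jun, Fos and Atf3 at the bottom are highest in Regeneration.

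Genes that sebaceous and anal glands use to build lipid were present. Of 13 members of the sebaceous or anal gland list with enough UMIs, 2 were over 2-fold higher than in the other named cells (Acsbg1, an acyl-CoA synthetase, and Awat2, a wax synthase) and 0 lower, beside 3.26% and 16.8% of all genes, with a list median of 0.61 against 0.02 for all genes. Acsbg1 was at 148 CPM in Wound_Stress, 114 in Regeneration and at most 18.2 in the other 4 names. Pparg, the nuclear receptor of lipid-storing cells, was at 74.4 and 85.7 CPM in Wound_Stress and Regeneration and at most 22.1 elsewhere. Plin2, which coats lipid droplets and had the most UMIs of this list, was at 365 CPM, and Regeneration was at 976 CPM. Scd1, a fatty acid desaturase, followed the same order at 337 and 861 CPM. Over Regeneration, 1 member was over 2-fold higher (Elovl4) and 3 were lower (Plin2, Scd1 and the sterol acyltransferase Soat1), beside 2.78% and 5.33% of all genes, with a median of -0.33 that became 0.44 when each cell counted equally. The summed level of the list was 1259 CPM in Wound_Stress, 2470 CPM in Regeneration, 3907 CPM in the cells without a name and under 500 CPM in the other 4 names.

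Of 20 members of the cholesterol and fatty acid list, 8 were over 2-fold lower and 0 higher than in Regeneration, beside 5.33% and 2.78% of all genes, with a median of -0.73 against 0.13 for all genes. Insig1, a sterol sensor, was at 24.3 CPM in Wound_Stress and 151 CPM in Regeneration. Cyp51, a demethylase of sterol synthesis, was at 41.3 and 178 CPM, and Idi1, an isomerase of the same pathway, at 153 and 356 CPM. Srebf1, the regulator of fatty acid synthesis, had the highest ratio of the list at 114 against 76.4 CPM. Against all other named cells 4 members were lower and Srebf1 was higher (2.36-fold), shares near the 16.8% and 3.26% of all genes.

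Wound_Stress cells carried the keratins of a basal stratified layer at a reduced level. Krt14 was at 2815 CPM, below 8434 in Basal, 5594 in Suprabasal and 3912 in Regeneration, and 99.6% of the cells held at least 1 UMI of it. Its partner Krt5 was at 433 CPM, above Rectum only (81.3 CPM). Trp63, encoding p63, was at 222 CPM, like Regeneration (222) and Basal (219.5). The integrin gene Itga6 was at 182 CPM, against 192 in Regeneration and 173 in Basal, whereas the laminin gene Lamb3 was at its lowest of the 6 names, at 12.9 CPM. Of the 12 genes of the basal list, 0 were over 2-fold higher than in the other named cells and 4 lower, among them Krt5, Krt15 and Lamb3, beside 3.26% and 16.8% of all genes, with a median of -0.33.

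Markers of other epithelial compartments were low against the other named cells together. Of 12 genes of the differentiated layers, 11 were over 2-fold lower than in the other named cells, beside 16.8% of all genes, with a median of -3.35. Against Regeneration 3 of 7 were higher and 0 lower, beside 2.78% and 5.33% of all genes, with a median of 0.27. That median was -0.38 without the highest Scrublet (doublet) scores, -0.36 in cells under 10% mitochondrial UMIs and -0.42 in cells of 5000 to 20000 UMIs, and under the Scrublet and mitochondrial filters the log2 ratios of Krt10 (0.31 and 0.22) and Krt1 (0.31 and 0.07) no longer passed 2-fold. Krt10, the keratin of the suprabasal epidermis, was at 42.5 CPM against 1987 in Basal and 17.8 in Regeneration, and 5 cells held 52.4% of its UMIs. Likewise 5 cells held 69.4% of the UMIs of its partner Krt1, at 28.0 CPM. All 7 genes of the transition zone list were over 2-fold lower than in the other named cells (median -4.66), beside the same 16.8%. Against Regeneration 2 of 4 were lower, beside 5.33% of all genes. Of the 7, Krt17, Krt6a, Nectin4 and Cd34 were highest in Suprabasal, Krt7 and Krt6b in Basal and Krt19 in Rectum. Nectin4, an adhesion protein, was at 6.57 CPM and the surface glycoprotein Cd34 at 0.67 CPM, the lowest of the 6 names for both. All 13 rectum markers with enough UMIs were over 2-fold lower than in the other named cells, which include the Rectum cells, beside 16.8%. Against Regeneration 1 of 11 was lower, beside 5.33% of all genes, and 10 lay within 2-fold (median -0.16). Krt8 was at 36.6 CPM against 2386 CPM in Rectum, and the mucin gene Muc13 at 12.2 against 653 CPM. After thinning, a UMI of Krt8 was seen in 6.85% of Wound_Stress cells, 4.43% of Basal and 94.6% of Rectum cells. Of 9 genes of the upper hair follicle and ducts, 7 were over 2-fold lower than in the other named cells, beside 16.8% of all genes, with Cst6, a protease inhibitor, at 257 CPM against 53234 CPM in Suprabasal. Of 7 hair follicle genes with enough UMIs 5 were lower, beside the same 16.8%, and the most abundant, Sox9, was at 113 CPM.

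Cells outside the epithelium, some kinds of which the sorting gate was set to exclude, left little signal in Wound_Stress. The summed levels of the immune, endothelial and melanocyte lists were 0.938, 0.402 and 4.29 CPM in Wound_Stress, and that of the fibroblast list 8.58 CPM, against 4033 CPM in the wounded cells without a name. Among immune markers Cd3e, Cd3g, Trdc, Tyrobp, Lyz2, Fcer1g and Laptm5 had 0 UMIs in the 838 cells, which allows at most 0.402 CPM (3 UMIs). Only 1 UMI of Ptprc, the pan-leukocyte gene, was counted. The endothelial markers Cdh5, Kdr, Tie1, Lyve1 and Cldn5 and the fibroblast marker Pdgfra were also at 0. Dcn, the fibroblast gene with the most UMIs, was at 2.81 CPM. The 10 lowest ratios over the other cells were those of Ppbp, Sprr2d, Klk10, Insl5, Pyy, Gcg, Psca, Igkc, Igha and Klk13, each at 2.81 CPM or less in Wound_Stress and at over 80 CPM in at least 1 other name. These ratios rest on few cells of the other names. The gut hormone genes Pyy, Gcg and Insl5 had UMIs in 22, 10 and 15 of the 316 Hybrid cells, and 5 cells held 70.6%, 78.0% and 69.0% of them. The immunoglobulin genes Igkc and Igha came almost wholly from 1 Rectum cell, which held 5815 of 5816 and 1962 of 1964 of their Rectum UMIs. The chemokine gene Ppbp, the cornified envelope gene Sprr2d and Psca were seen in 38, 23 and 44 of the 573 Basal cells, and the kallikreins Klk10 and Klk13 in 78 and 51 of the 1032 Suprabasal cells.

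Regeneration was the nearest name. Across 12654 genes the summed levels of Wound_Stress and Regeneration had a Spearman correlation of 0.958, against 0.882 with Suprabasal, 0.857 with Basal, 0.838 with Hybrid and 0.738 with Rectum, a description across genes that share depth and library. Of the 10601 genes with at least 50 UMIs in Wound_Stress and Regeneration together, 295 (2.78%) were over 2-fold higher in Wound_Stress and 565 (5.33%) over 2-fold lower. With ratios centred on the median of all genes these counts were 196 and 640, and with the deposited log values 93 and 901. The same counts on the scale used here were 1141 (10.6%) and 1229 (11.5%) against Suprabasal, 882 (8.69%) and 1064 (10.5%) against Basal, 658 (7.07%) and 1050 (11.3%) against Hybrid, and 1208 (11.8%) and 1899 (18.6%) against Rectum. The median log2 ratio of all genes against these 4 names was 0.19, 0.03, -0.15 and -0.03.

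Immediate-early genes were far lower than in Regeneration. All 21 members were over 2-fold lower in Wound_Stress than in Regeneration, beside 5.33% of all genes, and the median log2 ratio was -3.83. Fos, a subunit of the AP-1 transcription factor, was at 194 CPM in Wound_Stress and 2671 CPM in Regeneration (13.8-fold lower). Its partner Jun, the member with the most UMIs, was at 324 and 3488 CPM (10.8-fold lower), and Junb at 76.9 and 1091 CPM (14.2-fold lower). Atf3, a stress-responsive repressor, had the lowest ratio of the list, at 14.5 against 1269 CPM, a log2 ratio of -6.45 (-6.74 to -6.18). Myc had the ratio nearest 0, at 36.6 against 99.5 CPM.

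Zinc finger and nuclear receptor members followed. Egr1 was at 57.9 CPM against 1182, Klf6 at 51.5 against 888, Klf4 at 13.7 against 175, and the orphan receptor Nr4a1 at 4.02 against 175 CPM. Feedback genes were also low, with Ier3 at 49.5 against 1303 CPM, the phosphatase Dusp1 at 14.1 against 219.7 CPM and Zfp36, which speeds mRNA decay, at 18.5 against 309 CPM. Thinned cells showed the same difference: 17.5% of Wound_Stress cells held a UMI of Fos against 86.5% of Regeneration cells, 7.70% against 79.9% for Egr1 and 1.83% against 71.9% for Atf3. In Rectum cells these shares were 47.7%, 19.8% and 9.60%, above those of Wound_Stress for all 3 genes. Without thinning, 34.6% of Wound_Stress and 95.9% of Regeneration cells held a UMI of Fos.

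The summed level of the list was also lower than in every other name but Basal. Wound_Stress had the lowest level of the 6 wounded names for 9 of the 21 genes and the highest for 0. Ranks over all genes are not given beside these counts, so they are a description only. Over the other named cells together, which include Regeneration, 19 members were over 2-fold lower and 0 higher, beside 16.8% of all genes. Egr3 (-0.81) and Myc (-0.33) lay within 2-fold, and the list median was -2.91. Basal cells were nearest in their summed level, with Fos at 102 CPM, Jun at 142, Egr1 at 32.8 and Atf3 at 24.4. The summed level of the list was 1435 CPM in Wound_Stress, 1115 CPM in Basal, 18191 CPM in Regeneration and between 3247 and 4450 CPM in Rectum, Hybrid and Suprabasal. Wound_Stress had a higher mitochondrial share and a lower depth than Regeneration, and their part in this result was not tested. The part of the tissue dissociation before sorting was not tested either. Among cells of 5000 to 20000 UMIs (637 Wound_Stress and 862 Regeneration cells) the list median over Regeneration was -4.04, and among cells under 10% mitochondrial UMIs (385 and 748 cells) it was -4.12.

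The promoters of Fos and Nr4a1 are shown as examples from this list that hold more than 1 copy of a short motif. Dusp1 and Btg2, also on the list, held 3 and 2 copies and are not printed. Capitals mark TGACG, the core letters of the cAMP response element, on either strand (CGTCA where it lies on the other strand). The windows run from 250 bases before to 50 bases after the RefSeq start, on GRCm38.p6.
Fos, chr12:85473640-85473939, plus strand: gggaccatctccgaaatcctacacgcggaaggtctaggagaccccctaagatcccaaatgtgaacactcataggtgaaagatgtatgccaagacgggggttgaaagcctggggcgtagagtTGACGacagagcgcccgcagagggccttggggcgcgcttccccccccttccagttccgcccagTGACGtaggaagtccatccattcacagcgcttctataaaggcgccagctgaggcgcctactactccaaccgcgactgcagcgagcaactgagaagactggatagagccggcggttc
Nr4a1, chr15:101266596-101266895, plus strand: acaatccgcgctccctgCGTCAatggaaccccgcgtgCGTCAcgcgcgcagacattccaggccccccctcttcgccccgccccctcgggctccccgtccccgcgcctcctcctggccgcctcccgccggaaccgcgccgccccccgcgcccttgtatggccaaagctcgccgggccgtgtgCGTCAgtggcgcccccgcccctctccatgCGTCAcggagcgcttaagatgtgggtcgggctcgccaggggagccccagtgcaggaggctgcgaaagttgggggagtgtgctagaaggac
RefSeq promoters were matched for 16 of the 21 immediate-early genes, and 9 of them (56.25%) held TGACG, against 21.0% of 27025 promoters of the same length. The CArG box, the site of serum response factor, was found in 1 of the 16 (Zfp36) and in 1.57% of all promoters. TGACTCA, the AP-1 site, was found in 0 of the 16 and in 5.17% of all. No searched motif overlapped another in the windows printed. A match describes letters in a window and not a site in use. Sites outside these windows or spelled otherwise were not searched, and promoters were not matched for base composition. Fosl1, Egr1, Egr3, Ier2 and Myc had no matched promoter.

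**Figure D3:**
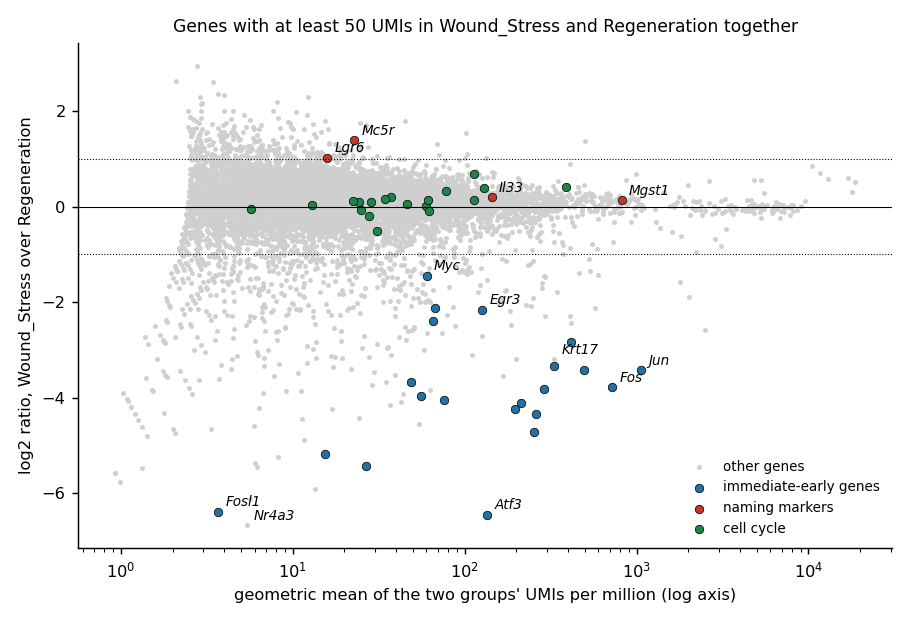
Log2 ratio of Wound_Stress over Regeneration (vertical axis) against the geometric mean of the levels of both groups (CPM, log axis) for the 10601 genes with at least 50 UMIs. Dotted lines mark 2-fold, all immediate-early genes (blue) lie under the lower line, cell cycle genes (green) lie between the lines and the naming markers (red) lie above 0.

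The 10 lowest ratios over Regeneration included more genes of this kind and secreted signals. They were Nr4a3, Atf3, Fosl1, Egr4, Cxcl1, Cxcl2, Arc, Nr4a1, Saa2 and Cxcl10. The orphan receptor gene Nr4a3 was at 0.536 CPM in Wound_Stress and 54.8 CPM in Regeneration, and between 0.523 and 4.05 CPM in the other 4 names. Arc was at 0.938 CPM against 41.2, and Saa2, a serum amyloid gene, at 0.938 against 38.9 CPM. Cxcl1, which attracts neutrophils, was at 1.74 CPM in Wound_Stress and 105 CPM in Regeneration. Cxcl2 had 0 UMIs in Wound_Stress against 17.8 CPM, at least 44.4-fold lower with 3 UMIs over the group as the floor. Of 8 cytokine and chemokine genes with enough UMIs, 6 were over 2-fold lower than in Regeneration and 0 higher, beside 5.33% and 2.78% of all genes, with a median of -3.01 that ran from -5.25 to -2.57 over the alternatives. Some Regeneration levels rested on few cells, with 5 cells holding 63.8% of the UMIs of Cxcl2 and 36.0% of those of Cxcl10.

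The 10 highest ratios over Regeneration were AI480526, Ly6g6c, Sept1, Snhg20, Otoa, Zfp101, Mir100hg, Zfp329, Zfp846 and Krt1. AI480526 had the highest, at 20.8 CPM against 5.23 in Regeneration, but it was at 26.8 CPM in Rectum and 22.5 in Basal. Sept1, a septin gene, was likewise at 15.7 CPM, 4.31 in Regeneration and 16.9 in Hybrid. Snhg20, a noncoding small nucleolar RNA host gene, was at 45.2 CPM against 13.3 (3.4-fold), and it was at 43.9 CPM in Basal. Mir100hg, a long noncoding host of microRNAs, was at 48.7 CPM, higher than in any other wounded name. The zinc finger genes Zfp101, Zfp329 and Zfp846 were 3.35-fold, 3.14-fold and 3.11-fold higher than in Regeneration. Without thinning, a UMI of Zfp329 was held by 32.2% of Wound_Stress cells, 35.3% of Basal cells and at most 27.4% in the other names. These shares depend on depth, and Hybrid cells (19.3%) had a median of only 2390 UMIs. Ly6g6c and Krt1 rested on few cells, since 5 cells held 72.9% of the UMIs of Ly6g6c and 69.4% of those of Krt1. With cells of 5000 to 20000 UMIs only, the log2 ratio of Ly6g6c was -0.13.

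In the heat shock, unfolded protein, antioxidant, p53 and hypoxia lists, 0 members were over 2-fold higher than in Regeneration, beside 2.78% of all genes. Against the other named cells only the antioxidant list had members over 2-fold higher (3 of 25), beside 3.26%. The word stress in the name is kept here as the deposited label. The median mitochondrial share, a sign of stress or RNA quality, was 10.95%, above every other name but Rectum (12.9%). The summed level of the heat shock list was 5889 CPM, above Suprabasal (5302) and Rectum (5519) and below Basal (5960), Hybrid (6158) and Regeneration (7934). Of 14 heat shock chaperone genes, 0 were over 2-fold higher and 4 lower than in the other named cells (median -0.46), beside 3.26% and 16.8% of all genes, and 0 higher and 7 lower than in Regeneration (median -0.96), beside 2.78% and 5.33%. Hspb1, a small heat shock protein of keratinocytes, was at 17.3 CPM, the lowest of the 6 names, against 512 in Suprabasal and 120.3 in Regeneration. The inducible Hspa1a was at 70.0 and 218 CPM in Wound_Stress and Regeneration, and the cochaperone Dnajb1 at 37.8 and 327 CPM. The mitochondrial chaperonins Hspd1 (434 CPM) and Hspe1 (310.4 CPM) were highest in Wound_Stress, each within 2-fold of the other cells. Hspa5, the chaperone of the endoplasmic reticulum, was lowest at 118 CPM. In the unfolded protein and integrated stress list 3 of 11 genes were lower than in Regeneration (Atf4, Ddit3 and Dnajb9) and 0 higher, beside 5.33% and 2.78% of all genes. Against the other named cells 5 of 12 were lower and 0 higher, beside 16.8% and 3.26%, with a median of -0.85.

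Antioxidant genes were mixed, with a summed level of 4589 CPM against 4572 in Regeneration and between 3282 (Hybrid) and 5352 (Rectum) in the other names. Of 25 members, 3 were over 2-fold higher than in the other named cells (Cat, Aldh3a1 and the naming marker Mgst1) and 6 lower, beside 3.26% and 16.8% of all genes, with a median of -0.23. Cat, catalase, was at 180.0 CPM against 142 in Regeneration and at most 47.9 in the other names. Aldh3a1, an aldehyde dehydrogenase, was at 132 and 107 CPM, and Gpx4, which detoxifies lipid peroxides and had the most UMIs, at 958 and 982 CPM. Gpx2 was lowest at 10.3 CPM against 1286 in Rectum. Against Regeneration 0 were higher and 2 lower (Srxn1 and Hmox1) of 24, near the 2.78% and 5.33% of all genes, with a median of -0.03. Of 12 p53 targets 3 were lower than in Regeneration, beside 5.33% of all genes, with the cell cycle inhibitor Cdkn1a at 19.2 against 116 CPM and Sfn at 187 against 908 CPM. Hypoxia and glycolysis genes had 4 of 12 lower and 0 higher than in Regeneration, beside the same 5.33% and 2.78%, among them the vasodilator Adm (0.67 against 16.9 CPM) and hexokinase 2, Hk2 (5.90 against 29.4 CPM).

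Keratins and matrix genes of wounded epidermis were low. Of 17 list members with enough UMIs, 13 were over 2-fold lower and 0 higher than in the other named cells (median -1.93). Over all genes these shares were 16.8% and 3.26%. Wound_Stress was the lowest of the 6 names for 10 of the 17, with no such rank given over all genes. Krt17 was at 109.9 CPM (103 to 118), the lowest of the 6 names, against 1004 in Regeneration, 7100.3 in Suprabasal and 134 in Rectum. After thinning, a UMI of Krt17 was found in 13.8% (11.5 to 16.4) of Wound_Stress cells and 11.9% (8.69 to 15.7) of Rectum cells, intervals that overlap. Krt6a was at 12.6 CPM against 1034 CPM in Suprabasal, with 70.2% of its UMIs in 5 cells, and Krt16 at 1.88 CPM. Against Regeneration 6 of 10 were lower and 0 higher, beside 5.33% and 2.78% of all genes, and the median was -1.13. Itga5, Mmp9, Mmp10, Mmp13 and Plaur had 0 UMIs.

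Of 7 genes of the interleukin 1 family with enough UMIs, 1 (Il33) was over 2-fold higher than in the other named cells and 4 lower, beside 3.26% and 16.8% of all genes, and against Regeneration 0 of 5 were higher and 1 lower, beside 2.78% and 5.33%. Among those lower than in the other named cells was Casp1, the protease that processes interleukin 1, at 3.89 CPM. Il1a and Il1b had 0 UMIs, as had Il1rl1, the receptor of Il33. Of 8 antimicrobial and serum amyloid genes 6 were lower than in the other named cells and 0 higher, beside 16.8% and 3.26% of all genes, and of 7 against Regeneration 4 were lower and 0 higher, beside 5.33% and 2.78%. Lcn2, an iron-binding antimicrobial protein, was the abundant member of its list at 1172 CPM, under Regeneration (1598) and over the other 4 names. The serum amyloid gene Saa3 was at 1.47 against 27.3 CPM in Regeneration, and the protease inhibitor Slpi at 16.5 against 238 CPM. Antigen presentation and interferon genes had 10 of 12 lower than in the other named cells, beside 16.8% of all genes. Against Regeneration 4 of 11 were lower, beside 5.33%, and H2-K1 was at 214 CPM. Wound_Stress was the lowest of the 6 names for 9 of the 12, with no such rank given over all genes. In the epidermal growth factor family 8 of 10 genes were lower than in the other named cells and 5 of 8 than in Regeneration, beside 16.8% and 5.33% of all genes, with 0 higher in both, beside 3.26% and 2.78%. The receptor Egfr was highest in Wound_Stress (71.8 CPM against 48.8 in Regeneration), while the ligands Areg (0.938 CPM) and Hbegf (3.22 CPM) were lowest of the 6 names.

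Gata3, needed for skin barrier and gland formation, was at 165 CPM against 142 in Regeneration and 7.30 in Rectum, and Tfap2b at 107 and 94.7 CPM. Klf5 was lowest of the 6 names at 17.8 CPM, as was Gata6, known from the upper follicle and ducts, at 2.28 CPM. Of 18 squamous factors, 2 were over 2-fold higher and 8 lower than in the other named cells, beside 3.26% and 16.8% of all genes, and of 15 with enough UMIs against Regeneration 0 were higher and 5 lower, beside 2.78% and 5.33%. In the Wnt and stem cell list 1 of 17 (the naming marker Lgr6) was higher and 5 were lower than in the other named cells, beside 3.26% and 16.8% of all genes, and of 13 against Regeneration 2 were higher and 1 lower, beside 2.78% and 5.33%, with a median of 0.26 that was -0.09 with the deposited log values. Sfrp1, a secreted Wnt antagonist, had the most UMIs of this list at 160.3 CPM. Ccnd1, cyclin D1, was at 1.88 CPM in Wound_Stress and 1.92 in Regeneration, against 103 in Basal. Lgr5, a stem cell gene of the gut and follicle, was at 0.67 CPM.

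Cycling genes lay within 2-fold in both comparisons. Of 19 cell cycle genes 0 were over 2-fold higher or lower than in the other named cells (median 0.22) or Regeneration (median 0.09), beside 3.26% and 16.8%, and 2.78% and 5.33%, of all genes higher and lower. Mki67 was at 149 CPM against 114 in Regeneration and 162 in Basal, and Top2a at 119 against 108 and 162. A UMI of Mki67 or Top2a was seen in 15.5% of thinned Wound_Stress cells, 17.2% of Regeneration and 26.1% of Basal cells. The authors regressed cell cycle scores before clustering.

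**Figure D4:**
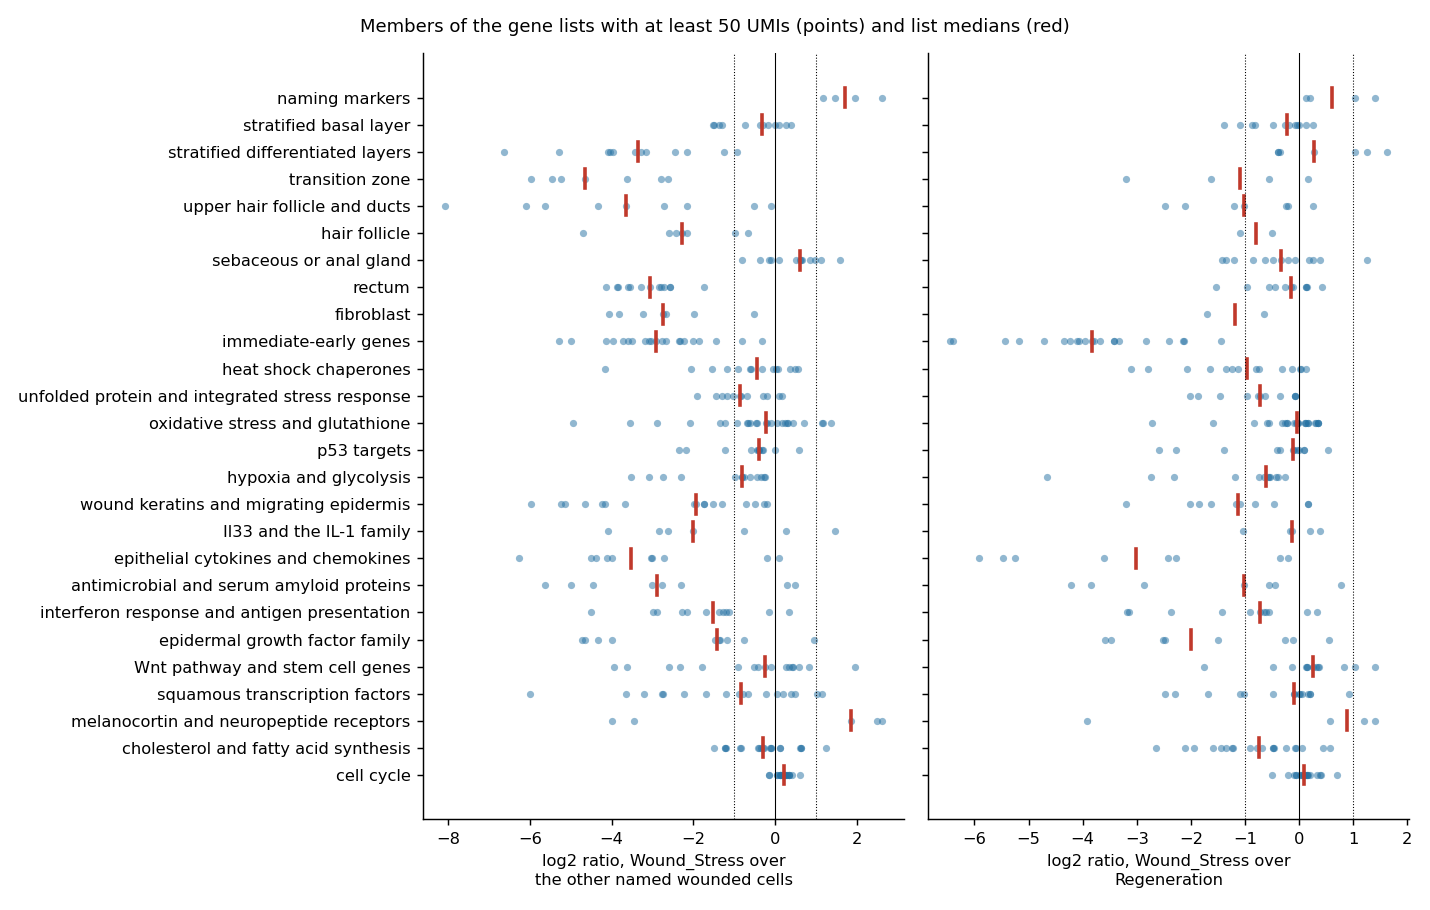
Log2 ratios of list members with at least 50 UMIs (blue points, 1 per gene) and list medians (red bars), for Wound_Stress over the other named wounded cells (left) and over Regeneration (right), with dotted lines at 2-fold. Immediate-early genes lie left of the dotted line at -1 for all 21 members in the right panel, and cell cycle genes lie between the lines in both.

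Within the name, several levels moved with depth. When the 838 cells were split by UMIs into 4 bins of 208 to 210 cells, the median depth ran from 3888 to 13759 UMIs and the median mitochondrial share from 16.2% to 8.42%. Il33 stayed between 146 and 159 CPM and Mgst1 between 828 and 907 CPM over the bins. Mc5r was at 61.0 CPM in the shallowest bin and 30.4 CPM in the deepest, Ermp1 at 924 and 452 CPM, and Lgr6 at 31.8 and 17.8 CPM. Fos ran the other way, at 87.7 and 265 CPM, and Mki67 was at 76.2 and 209 CPM. Because a CPM is a share of a cell's UMIs, depth and composition cannot be told apart here.

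The share of a cell's UMIs held by immediate-early genes had a median of 0.076% (quartiles 0.037% and 0.151%) in Wound_Stress and 1.76% (1.14% and 2.52%) in Regeneration. Of the Wound_Stress cells, 0.358% lay above the lower quartile of Regeneration, and 0% above its median. The median share was 0.063% in the shallowest bin of Wound_Stress and 0.096% in the deepest. For the gland list the groups overlapped, with medians of 0.108% in Wound_Stress and 0.140% in Regeneration and a wider upper quartile in Regeneration (0.267% against 0.169%).

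**Figure D5:**
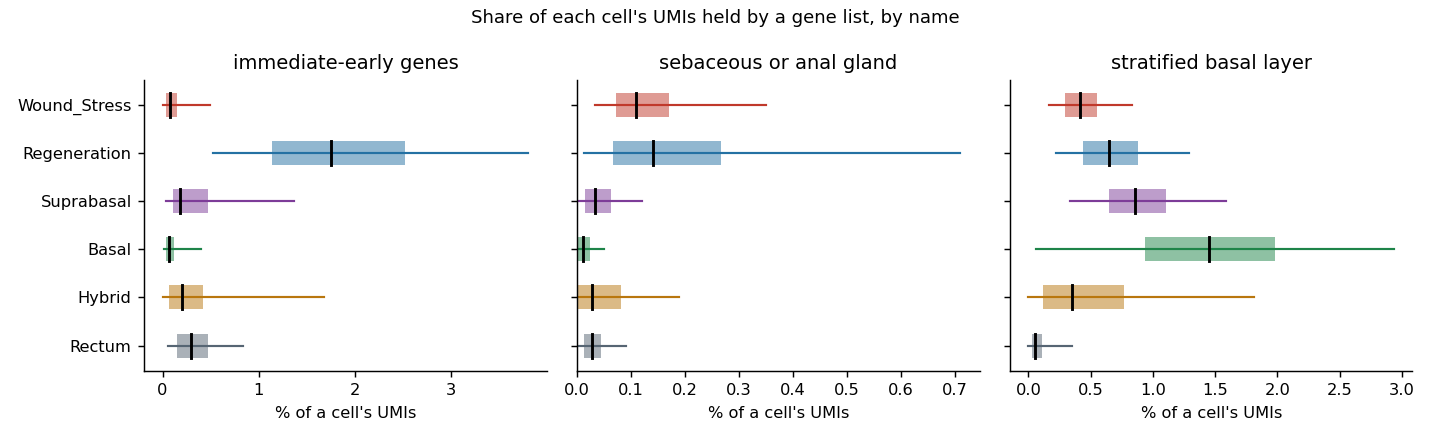
Share of each cell's UMIs (%) held by the immediate-early, gland and basal layer lists in the 6 wounded names, with boxes from the lower to the upper quartile, black lines for medians and thin lines from the 5th to the 95th percentile of cells. The immediate-early boxes of Wound_Stress and Regeneration do not overlap, whereas the gland boxes do.

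Among the 20 nearest named cells of each Wound_Stress cell, in 30 principal components of 2000 variable genes, 94.1% carried the same name. Regeneration made up 3.30% of these neighbours and Suprabasal 2.01%, and Basal, Hybrid and Rectum under 1% each, beside 23.9% and 24.9% of all named cells for the former pair. In 576 cells (68.7%) all 20 neighbours were Wound_Stress, and in 20 cells (2.39%) at most 50% were. Names and neighbours rest on the same genes, so this describes how separate the name is and is no test.

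In the normal library no cell carries this name. The naming markers were low in its 4 names: Il33 was at most 15.5 CPM (Basal), Mc5r at most 0.37 CPM (Basal), Lgr6 at most 5.02 CPM (Anal Canal) and Mgst1 at most 357 CPM (Basal). The 610 filtered normal cells without a name held more, with Il33 at 94.5 CPM, Mgst1 at 1251 CPM (above Wound_Stress), and a UMI of Avpr1a in 8.79% and of Oxtr in 3.34% of thinned cells (31.5% and 12.8% without thinning). In thinned normal Anal Canal and Rectum cells 0 of 397 and 0 of 60 held a UMI of either gene, which allows shares of up to 0.925% and 5.96%. Oxtr was at 4.44 CPM and Avpr1a at 17.4 CPM in normal Basal cells, against 36.7 and 85.4 CPM in Wound_Stress. Immediate-early genes were high in normal Basal cells, with Fos at 2154 CPM and Jun at 1438 CPM, and lower in normal Anal Canal cells at 420.2 and 154 CPM. The headers of the matrices name different versions of Cell Ranger and each condition is 1 library, so condition and library cannot be told apart and the values stand side by side.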

How the data were processed

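Single-cell RNA was measured with the 10x Genomics 3' chemistry in 1 normal and 1 wounded library. Reads were aligned to mm10 and UMI counts made with Cell Ranger. The submitters' processing notes and the methods name version 3.1.0, as does the header of the normal matrix, while the header of the wounded matrix names 4.0.0. The authors then used Seurat 3.2.2, keeping cells with over 200 and under 5000 genes and under 25% mitochondrial UMIs, regressing cell cycle scores, clustering, and removing hair follicle, fibroblast and anal gland clusters. They deposited unnormalized UMI counts for all barcodes, and a table of natural log values for the named cells, each with its cluster name. The wounded matrix held 17216 barcodes, of which 5225 pass those filters, 4147 are named and 1078 are not. The normal matrix held 2564 barcodes, with 939 named.

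From the counts, UMIs were summed over the cells of each name in Python 3.11.15 (scipy 1.17.1, scanpy 1.11.5). Ratios were computed for genes with at least 50 UMIs in both groups together, and a gene was counted past 2-fold with no test, since cells of 1 library are not replicates. Intervals are exact binomial for ratios, exact Poisson for levels and Clopper-Pearson for shares. In ratios and bounds a group at 0 was set to 3 UMIs. The script was tested on simulated data. Named genes were the naming markers, the 10 highest and lowest ratios of the contrasts with all other names and with Regeneration (genes with at least 100 UMIs where higher, without mitochondrial, ribosomal protein and unnamed predicted genes), list members with at least 50 UMIs and genes the study names. List members at 0 and Ptprc, which are under 50 UMIs, were named after their values were seen. Alternatives were per-cell means, other totals, the log table, UMI minimums, depth, mitochondrial and doublet filters. Scrublet's automatic threshold called 0 of 5225 cells and so did not work, and no cell was removed as a doublet. As an alternative the highest 6% of scores (314 cells, 28 of them Wound_Stress) were left out. A few list members are not reported here. Members and gene lists were chosen with earlier results of these data known.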

Additional observations from a re-analysis of the deposited data

Results flagged for a closer look

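The filtered wounded cells without a deposited name, which enter no ratio above, held some of the markers at a higher level than the unnamed cells of the normal library. Mc5r was at 56.6 CPM (52.4 to 61.1) in the 1078 unnamed wounded cells and at 1.17 CPM (0.47 to 2.41) in the unnamed normal cells. Mgst1 was at 1962 CPM (1937 to 1987) and 1251 CPM (1223 to 1280). Il33, at 21.5 and 94.5 CPM, and Lgr6, at 3.12 and 5.68 CPM, were not higher in the wounded library. The difference was not tested, since each library is 1 sample. The unnamed cells include clusters that the authors removed, and which cells these are was not analysed here.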

How the results depend on the processing

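Each condition had 1 library, so leaving out a replicate was not possible. No paired analysis was possible because each group holds 1 sample and no result comes from a test. Depth limits all genes under 50 UMIs, and the Wound_Stress levels of Ly6g6c, Krt1, Krt10, Krt6a and Retn rest on few cells, as do the levels of Igkc, Igha, Gcg, Pyy, Insl5 and Sprr2d in the other names. Over the other named cells, the number of genes over 2-fold higher was 700 with totals without mitochondrial and ribosomal protein genes, 255 with the deposited log table and 217 with at least 200 UMIs, and the number lower was 1247 with at least 200 UMIs. Over Regeneration, the number higher was 457 with the mean of per-cell CPM, 164 in cells under 10% mitochondrial UMIs, 196 with ratios centred on the median of all genes, 93 with the log table, 512 with at least 20 UMIs and 81 with at least 200. The number lower was 901 with the log table and 353 with at least 200 UMIs. The median log2 ratio of all genes over Regeneration was 0.13, against -0.19 with the log table and 0.20 without mitochondrial and ribosomal protein genes. Some genes changed direction. The log2 ratio of Igkc over the other named cells was 1.15 without the highest Scrublet scores and 1.51 in cells of 5000 to 20000 UMIs, that of Igha was 0.23 and 1.43, and that of Ly6g6c over Regeneration was -0.13 in cells of 5000 to 20000 UMIs. The differentiated-layer median over Regeneration was 0.27, and it was -0.38, -0.36 and -0.42 without the highest Scrublet scores, in cells under 10% mitochondrial UMIs and in cells of 5000 to 20000 UMIs. The causes were not tested. Of 686 alternative values of single-gene ratios, 498 stayed within the counting interval of the value given, 183 moved outside it and 5 ratios past 2-fold changed sign. For list medians, 471 of 497 alternatives stayed within 1.5 times, and the immediate-early median over Regeneration lay between -4.12 and -3.75.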

Other observations

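Zinc finger genes were looked at after 3 of them appeared among the 10 highest ratios over Regeneration, so the choice was made after their values were seen. Of 250 genes with a symbol starting with Zfp and at least 50 UMIs, 33 (13.2%) were over 2-fold higher in Wound_Stress than in Regeneration and 6 (2.40%) lower, with a median log2 ratio of 0.44, beside 2.78% and 5.33% of all genes and a median of 0.13. Over all other named cells 24 of 296 (8.11%) were higher and 4 (1.35%) lower, with a median of 0.37, beside 3.26% and 16.8% of all genes. Wound_Stress cells also had the lower depth of the pair and the higher mitochondrial share, whose part in these counts was not tested.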
